A study of Homo sapiens with 8 samples.

Results

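NEAT1, MALAT1 and 5 genes for paraspeckle proteins (SFPQ, NONO, PSPC1, RBM14 and HNRNPK) were followed through 4 conditions of IMR90 cells, a line of normal human lung fibroblasts. These 7 genes of the 28265 annotated were picked by symbol after the share of counts held by NEAT1 was seen to peak at 3 days of treatment. NEAT1 is therefore described without a test, and tests are given for the other 6. The cells were at low passage with no ICM (labelled young, called control here), treated with ICM for 3 days, treated with ICM for 6 days, or labelled MetaICM, a treatment of low-passage cells that is not explained further in the sources used here. ICM is inflachromene, a small molecule that binds HMGB proteins, and the doses are not given in the labels. Whether the control cells received the solvent DMSO is not given for these libraries in the sources used here. Each condition had 2 libraries. Nothing in the labels says whether the 2 came from separate cultures, so every p-value below measures only the spread between such libraries.

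The libraries were made by factory RNA-seq, in which nuclei are digested so that RNA still attached to the sites of transcription is recovered, and the study used them to follow transcription over time under ICM. Per the labels, poly(A) selection came before library preparation. Fragments lying on exons were counted per gene, giving 12095123 to 23166405 counts per library. All 9 fibroblast markers checked were detected in every library. Their summed share of counts was 5.78% and 5.45% in control, 2.80% and 2.73% at 3 days, 2.12% and 2.11% at 6 days, and 3.72% and 3.44% in MetaICM. FN1 alone held 3.64% and 3.24% in control and 1.81% and 1.43% in MetaICM. At each ICM time 8 of the 9 had a lower share than control in both libraries and COL3A1 overlapped it, while in MetaICM 4 were lower, 3 overlapped and 2, VIM and THY1, were higher. The 4 epithelial markers summed to 2 to 26 counts per library, the 3 endothelial markers to 28 to 93 and the 4 blood markers to 10 to 52, with CD3E at 0 throughout. Most endothelial counts were of VWF, with 61 to 92 under ICM, 48 and 26 in control and 36 and 33 in MetaICM. The part of these markers in the results was not tested. Because counts are parts of a library, more RNA per cell and more cells that make it cannot be told apart.

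Paraspeckles are nuclear bodies built on NEAT1, a long noncoding RNA that is transcribed as a short polyadenylated form and a long form sharing its 5′ end. SFPQ, NONO and PSPC1 coat the RNA as paired RNA-binding proteins, RBM14 is needed for the body to assemble, and HNRNPK favours the long form by hindering the poly(A) signal of the short form. MALAT1, made next to NEAT1, collects in nuclear speckles, where splicing factors are stored. NEAT1 is known to respond to cell stress.

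The long form of NEAT1 and MALAT1 end without a poly(A) tail of the usual kind. Their ends are cut by RNase P and hold U-rich runs that fold with an A-rich run into a triple helix. These ends are shown because the labels name poly(A) selection for the libraries. The short form of NEAT1 is shown beside them because its end carries a regular signal. All 3 are on the plus strand of GRCh37, at chr11:65212912-65213011, chr11:65273488-65273587 and chr11:65193944-65194003. In the first and second, capitals mark the longest run that both ends share, 16 bases, and the 12 bases richest in A, which hold 9 A in NEAT1 and 12 A in MALAT1. In the third, capitals mark the poly(A) signal.
NEAT1 long form, 3′ end: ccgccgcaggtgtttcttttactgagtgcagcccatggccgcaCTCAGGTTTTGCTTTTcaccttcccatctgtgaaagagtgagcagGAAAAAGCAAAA
MALAT1, 3′ end before mascRNA: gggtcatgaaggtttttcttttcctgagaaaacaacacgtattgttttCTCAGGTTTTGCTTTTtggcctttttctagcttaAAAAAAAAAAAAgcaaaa
NEAT1 short form, 3′ end: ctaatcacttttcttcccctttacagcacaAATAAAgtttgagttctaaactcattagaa

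RNAs that carry no poly(A) tail were present in the libraries all the same. A set of 7 of them, led by RMRP, held 2.33% to 2.91% of counts in control and at both ICM times. Their share was highest in MetaICM, at 2.94% and 3.26%, where NEAT1 was lowest. The next highest share was at 3 days, at 2.909% and 2.905%, where NEAT1 was highest. Every control and 6-day library had a lower share than these. Most of each sum was RMRP, which held 531144 of 617631 and 386358 of 418277 counts at 3 days. The sum therefore says little about the other RNAs of the set. RN7SK had 53945 and 18490 counts in the 3-day libraries, whose totals were 21230563 and 14400220. The part of poly(A) selection in the levels of NEAT1 and MALAT1 was not tested.

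In hg19 coordinates NEAT1 spans chr11:65190269-65213009 on the plus strand as a single exon of 22741 bases. Its short form is the first 3735 of these bases, so the 2 forms cannot be told apart in a count per gene. MALAT1 starts 52199 bases downstream, at chr11:65265209-65273983 on the same strand. Of its 8775 exon bases, 7201 also lie in exons of the antisense gene TALAM1, and fragments on more than 1 gene were not counted. That left 1574 bases, from 65265209 to 65266782, on which a MALAT1 fragment could count. Only 343 of those lie past the downstream exon start at 65266440, and 59 of 66 MALAT1 transcripts in the GENCODE annotation start there or later. Where on the 1574 bases the MALAT1 fragments lie was not analysed here. For TALAM1, 920 bases were countable.

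The protein genes lie elsewhere. SFPQ is at chr1:35641979-35658746, NONO at chrX:70503042-70521018, PSPC1 at chr13:20248892-20357176, RBM14 at chr11:66384101-66397397 and HNRNPK at chr9:86582998-86595697. SFPQ, NONO and PSPC1 share no exon base with another gene. RBM14 shares 428 of 5359 exon bases with the readthrough gene RBM14-RBM4, and HNRNPK shares 41 of 3225 with RMI1.

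NEAT1 ranked 3rd of all genes by counts in both libraries at 3 days. It ranked 9th to 10th in control, 8th to 9th at 6 days, and 15th to 20th in MetaICM. Its share of all counts was 0.818% and 0.885% in control, 1.86% and 1.43% at 3 days, 0.684% and 0.772% at 6 days, and 0.471% and 0.509% in MetaICM. The 95% Wilson intervals of these shares reached at most 0.00613 percentage points to either side. Such intervals cover counting error only.

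Scaled to 1000000 counts per library (CPM, with library sizes adjusted by the TMM method), NEAT1 was at 8554 and 8861 in control, 18177 and 13894 at 3 days, 6748 and 7748 at 6 days, and 4759 and 5116 in MetaICM. The 4 conditions did not overlap, in the order 3 days, control, 6 days and MetaICM. The fitted log2 fold change against control was 0.88 at 3 days, -0.27 at 6 days and -0.82 in MetaICM. From 3 to 6 days it was -1.15. MetaICM stood at -1.69 against 3 days and at -0.55 against 6 days. These values chose the gene and carry no test.

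**Figure D1:**
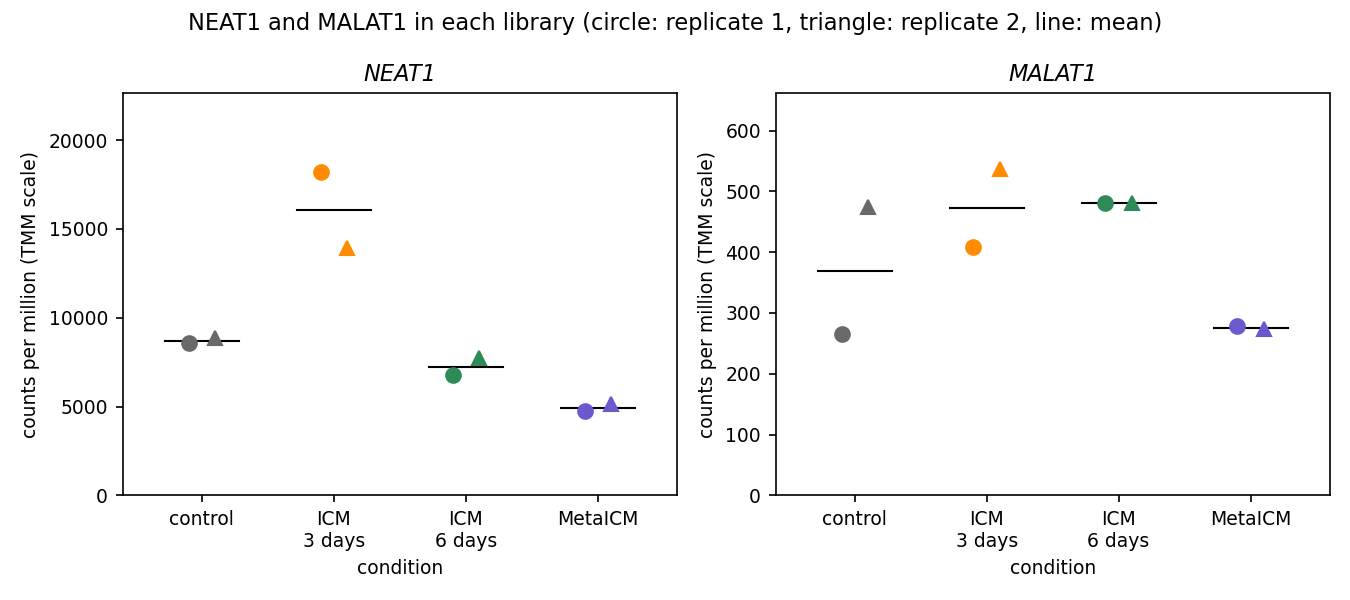
NEAT1 (left) and MALAT1 (right) in CPM by condition, with a point for each of the 8 libraries and a line at the mean of each pair. NEAT1 lies at 18177 and 13894 at 3 days against 4759 and 5116 in MetaICM, while for MALAT1 the control pair lies far apart, at 265 and 475.

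MALAT1 did not share this course. Its CPM was 265 and 475 in control, 409 and 537 at 3 days, 481 and 480 at 6 days, and 278 and 274 in MetaICM. Both ICM times lay above MetaICM in every library, and the control libraries stood far apart. MALAT1 fell from 6 days to MetaICM by 0.80 on the log2 scale (SE 0.07, adjusted p = 5.55e-09 by the quasi-likelihood test of edgeR, adjusted over all genes after Benjamini and Hochberg). Against 3 days it fell by 0.77 in MetaICM (SE 0.11, edgeR adjusted p = 5.65e-05). Without ICM 3 days replicate 2, that difference was -0.57, short of the 0.6 that a call asks for beside an adjusted p under 0.05.

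Against control, none of the MALAT1 differences passed. The log2 fold change was 0.35 at 3 days (95% interval -0.14 to 0.84, edgeR adjusted p = 0.266), 0.37 at 6 days (-0.10 to 0.85, edgeR adjusted p = 0.186) and -0.42 in MetaICM (-0.89 to 0.04, edgeR adjusted p = 0.158). Each of the 3 values turned on which control library was used. Without control replicate 2 the differences were 0.81, 0.86 and 0.06. Without control replicate 1 they were -0.01, 0.01 and -0.78. Such fits hold no spread between control libraries, so only their differences are given.

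TALAM1, the antisense partner, was low, at 4.22 and 3.89 CPM in control, and its difference passed in none of the 6 comparisons. The count ratio of MALAT1 to TALAM1 was 62.8 and 122 in control, 84.8 and 105 at 3 days, 126 and 112 at 6 days, and 63.8 and 54.4 in MetaICM. The libraries were counted without strand, so fragments of either RNA on the unshared bases cannot be assigned to a strand.

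Among the protein genes, SFPQ and RBM14 had their lowest levels at 6 days. SFPQ, a splicing factor that NEAT1 holds in paraspeckles, was at 356 and 331 CPM in control, 327 and 318 at 3 days, 244 and 271 at 6 days, and 367 and 399 in MetaICM. The 6-day pair lay under the other 6 libraries. SFPQ fell at 6 days by 0.42 on the log2 scale against control (SE 0.11, edgeR adjusted p = 0.0121) and by 0.33 against 3 days (SE 0.09, edgeR adjusted p = 0.0124).

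In MetaICM SFPQ was higher than at 6 days by 0.57 on the log2 scale (SE 0.08, edgeR adjusted p = 2.07e-06) and than at 3 days by 0.25 (SE 0.08, edgeR adjusted p = 0.0232). The difference from control was 0.15 (95% interval -0.09 to 0.40, edgeR adjusted p = 0.327). Without ICM 6 days replicate 1 the falls at 6 days were -0.34 against control and -0.24 against 3 days, and neither passed. Without ICM 6 days replicate 2 they were -0.49 and -0.41, and that against control did not pass. Fewer of all genes passed in these fits too. The rise over 3 days was 0.19 without MetaICM replicate 2 and did not pass there. It also did not pass on plain library totals (edgeR adjusted p = 0.0646), on counts thinned to the smallest library (0.0615) and in a single fit of all 8 libraries (0.0593).

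RBM14, at 72.2 and 61.3 CPM in control, was at 64.8 and 61.9 at 3 days, 46.6 and 49.8 at 6 days, and 62.2 and 59.5 in MetaICM. Again the 6-day pair was below every other library. RBM14 fell at 6 days by 0.48 on the log2 scale against control (SE 0.13, edgeR adjusted p = 0.0120) and by 0.40 against 3 days (SE 0.10, edgeR adjusted p = 0.00752). It was 0.33 higher in MetaICM than at 6 days (SE 0.08, edgeR adjusted p = 0.00114). Without ICM 6 days replicate 1 the falls had edgeR adjusted p = 0.170 and 0.161. Without ICM 6 days replicate 2 the adjusted p against control was 0.0866 in edgeR. Against control, RBM14 in MetaICM passed only without control replicate 2, at -0.25 (edgeR adjusted p = 0.0268).

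NONO, PSPC1 and HNRNPK did not pass in any of the 6 comparisons with all libraries of the pair and the main settings. NONO, which pairs with SFPQ, was at 357 and 288 CPM in control, 339 and 321 at 3 days, 333 and 351 at 6 days, and 354 and 373 in MetaICM. Its control libraries enclosed those of both ICM times. Without control replicate 1, the log2 fold change of NONO against control was 0.24 at 6 days and 0.34 in MetaICM. Without control replicate 2 these were -0.06 and 0.03. PSPC1, the third protein of this family, was at 87.6 and 85.3 CPM in control, 81.6 and 92.6 at 3 days, 78.9 and 85.1 at 6 days, and 75.8 and 77.0 in MetaICM, the lowest pair. For MetaICM against 3 days its log2 fold change was -0.18 (edgeR adjusted p = 0.117). PSPC1 passed there on plain library totals, at -0.24 (edgeR adjusted p = 0.0447), and on thinned counts (0.0427). Its difference was -0.27 without ICM 3 days replicate 1 and -0.09 without ICM 3 days replicate 2. HNRNPK was at 453 and 455 CPM in control, 468 and 437 at 3 days, 495 and 525 at 6 days, and 484 and 504 in MetaICM.

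The highest condition mean stood over the lowest by 1.13-fold for HNRNPK, 1.13-fold for NONO and 1.14-fold for PSPC1. Of the 9281 genes with a mean of at least 10 CPM, only 3.16%, 3.31% and 4.29% had a smaller range than these 3 genes. The same fold was 1.39 for RBM14, 1.49 for SFPQ, 1.74 for MALAT1 and 3.25 for NEAT1, against which 36.7%, 49.6%, 71.4% and 93.9% of genes had smaller ranges. The NEAT1 range is part of what chose it.

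**Figure D2:**
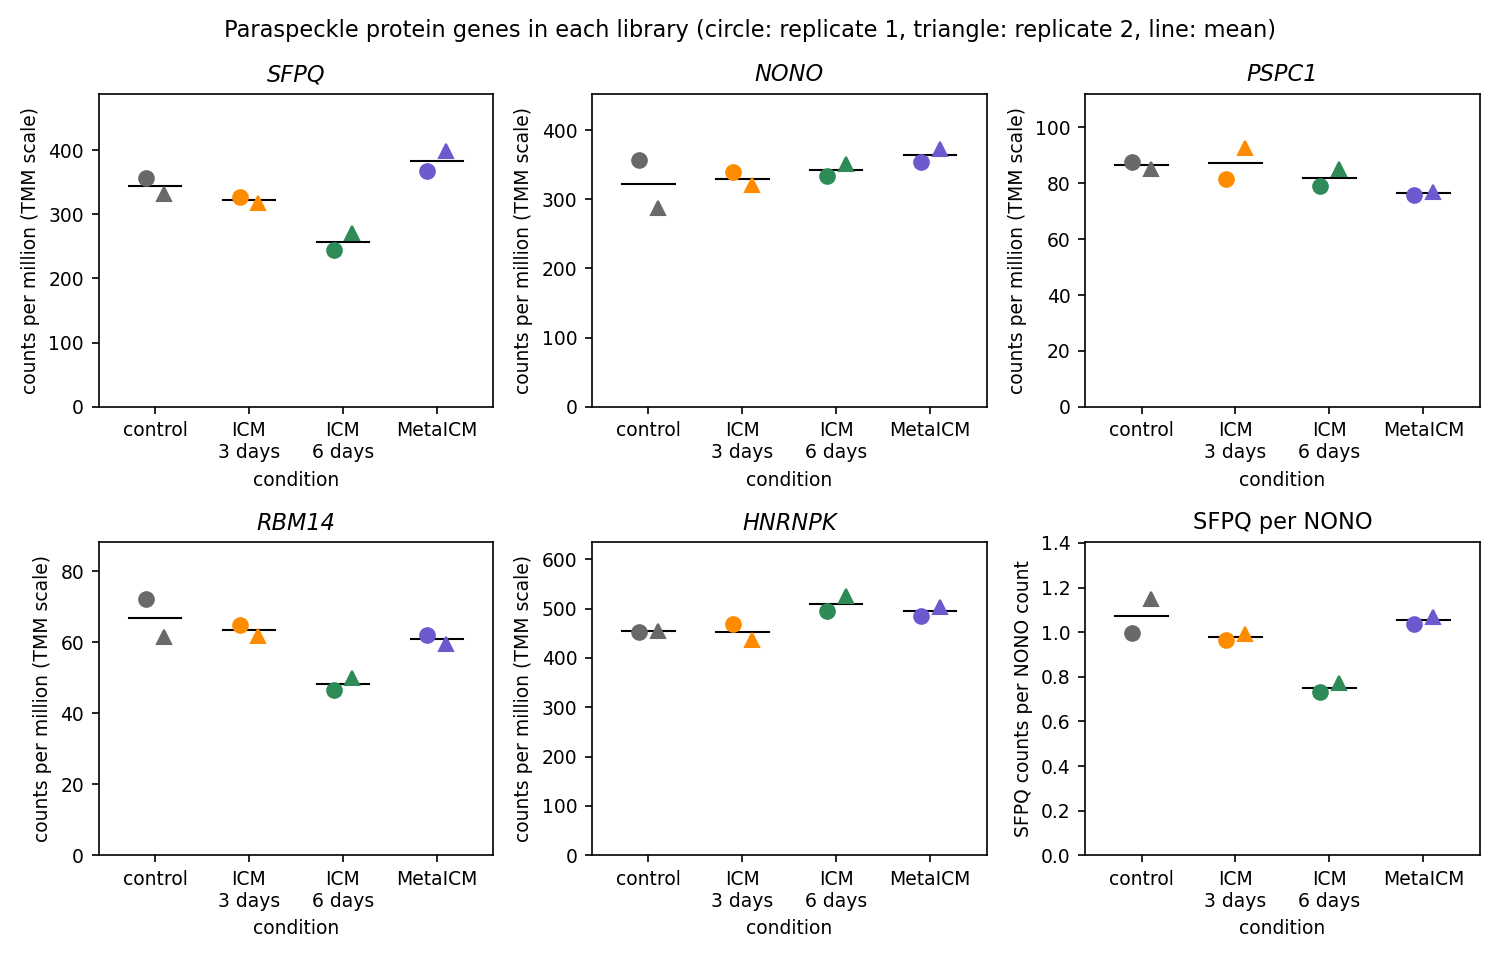
The 5 protein genes in CPM and the ratio of SFPQ to NONO counts, by condition, with a point for each library and a line at the mean of each pair. SFPQ and RBM14 are lowest at 6 days, at 244 and 271 and at 46.6 and 49.8, while NONO, PSPC1 and HNRNPK stay within 1.14-fold between condition means.

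The ratio of SFPQ to NONO RNA counts, with no protein measured, was lowest at 6 days, as SFPQ was. There were 0.998 and 1.15 SFPQ counts per NONO count in control, 0.966 and 0.991 at 3 days, 0.732 and 0.772 at 6 days, and 1.04 and 1.07 in MetaICM. The 6-day libraries were below all others. With 2 libraries against 2, an exact two-sided permutation test cannot give a p under 0.333, so the ratio is given without a test. PSPC1 counts per NONO count ran from 0.206 and 0.214 in MetaICM to 0.246 and 0.296 in control.

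Set against the 5 protein genes together, NEAT1 had 6.45 and 7.26 counts per count in control, 14.2 and 11.3 at 3 days, 5.63 and 6.05 at 6 days, and 3.54 and 3.62 in MetaICM. The 4 conditions kept the order that NEAT1 has alone. Per MALAT1 count, NEAT1 had 32.3 and 18.7 counts in control, 44.4 and 25.9 at 3 days, 14.0 and 16.1 at 6 days, and 17.1 and 18.7 in MetaICM. On this ratio the control and 3-day libraries overlapped, and MetaICM lay above 6 days.

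Levels of different genes can be compared per length, as CPM per kilobase of unshared exon (RPKM). In control, NEAT1 led at 385 ± 9.61 (SD, n = 2), followed by MALAT1 at 235 ± 94.2, HNRNPK at 143 ± 0.452, NONO at 100 ± 15.1, SFPQ at 86.4 ± 4.49, PSPC1 at 15.3 ± 0.296 and RBM14 at 13.5 ± 1.56. NONO and SFPQ overlapped between libraries, and the other neighbours in that order did not. The place of MALAT1 rests on the 1574 countable bases. Dividing the same counts by all its exon bases gave 30.2 and 54.1 RPKM in control. Those values are too low as a level, because fragments on the shared bases were not counted. The NEAT1 value divides the counts of both forms by the length of the long form. At 6 days NEAT1 was at 298 and 342 RPKM and MALAT1 at 306 and 305, so that these neighbours overlapped there. Per length NEAT1 ranked 31st and 38th of all genes at 3 days, well under its rank by counts.

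The 6 tested genes were also counted in each comparison, and the comparisons share libraries. At 3 days against control, 0 of 6 passed an adjusted p of 0.05 in edgeR and in DESeq2, and 0 had an unadjusted p under 0.05. In that comparison 29.0% of the 15692 genes tested passed and 22.0% were called, meaning that they also had a log2 fold change over 0.6 in size. Only SFPQ had libraries that did not overlap, as had 65.5% of all genes.

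At 6 days against control, SFPQ and RBM14 passed, both lower, and 0 were called, where 42.2% of 15950 genes passed and 30.5% were called. In 5 of 6 the libraries did not overlap, against 72.6% of genes. From 3 to 6 days the same 2 genes passed, both lower, where 19.3% of 15845 genes passed (9.66% higher and 9.66% lower) and 8.07% were called. In 3 of 6 the libraries did not overlap, against 59.4% of genes.

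For MetaICM against control, 0 of 6 passed in edgeR and in DESeq2, and 0 had an unadjusted p under 0.05, where 27.0% of 15904 genes passed and 16.4% were called. In 3 of 6 the libraries did not overlap, against 68.3% of genes. Against 3 days, SFPQ was higher and MALAT1 lower, and MALAT1 was called, where 42.9% of 16209 genes passed (22.6% higher and 20.3% lower) and 23.4% were called. Against 6 days, SFPQ and RBM14 were higher and MALAT1 lower, and MALAT1 was called, where 53.5% of 16036 genes passed (27.5% higher and 26.0% lower) and 27.7% were called. In each of these last comparisons 5 of 6 did not overlap, against 72.6% and 76.2% of genes.

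**Figure D3:**
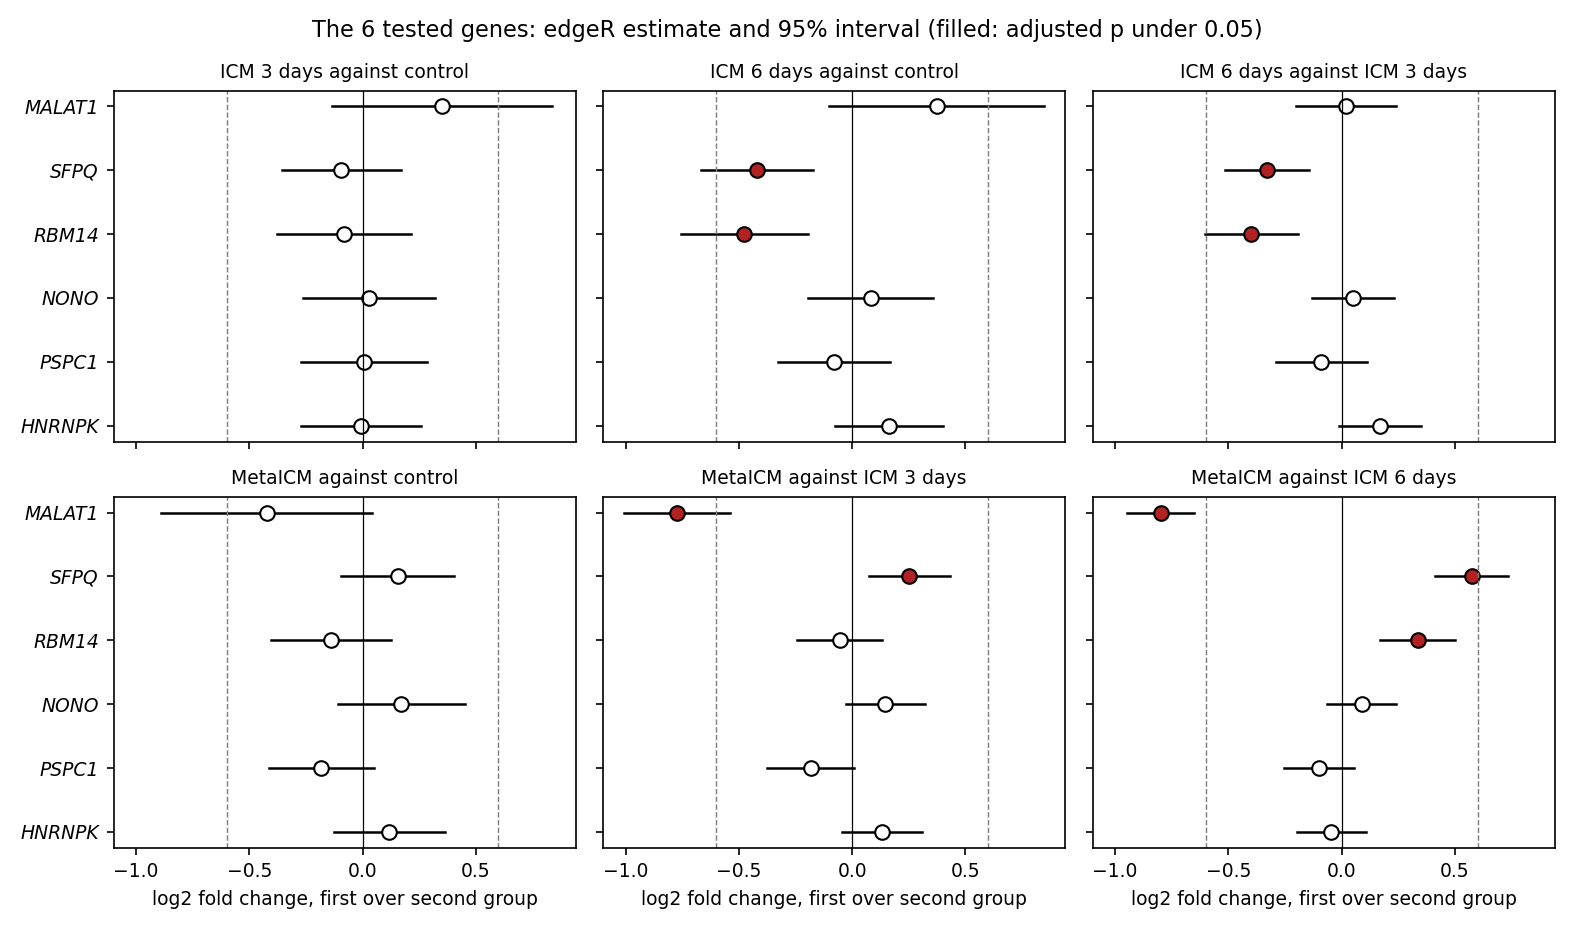
Log2 fold change of the 6 tested genes in each comparison, with the 95% interval from edgeR as a bar, filled points where the adjusted p was under 0.05, and dashed lines at -0.6 and 0.6. The filled points are SFPQ and RBM14 at 6 days, MALAT1 and SFPQ in MetaICM against both ICM times, and RBM14 in MetaICM against 6 days.

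Other proteins found in paraspeckles were taken from a list of 42, of which 40 were tested. At 3 days 9 of these were lower than control and 2 higher, beside 15.9% lower and 13.0% higher among all genes tested. At 6 days 17 were lower and 3 higher, beside 21.7% and 20.5%. In MetaICM 7 were lower and 1 higher, beside 14.0% and 13.0%. The median log2 fold change of the 40 was -0.19, -0.29 and -0.10, where that of all genes tested was 0.0094, -0.0013 and -0.0011.

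TAF15, an RNA-binding protein, was at 60.9 and 63.3 CPM in control and 39.7 and 41.3 in MetaICM, a fall of 0.62 on the log2 scale (SE 0.11, edgeR adjusted p = 0.00401).

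HNRNPA1, a splicing repressor, was at 240 and 234 CPM in control, 139 and 136 at 3 days, 144 and 151 at 6 days, and 208 and 236 in MetaICM. It fell by 0.79 on the log2 scale at 3 days (SE 0.12, edgeR adjusted p = 0.000383) and by 0.69 at 6 days (SE 0.11, edgeR adjusted p = 0.000528). SMARCC1, a subunit of the SWI/SNF chromatin remodeller, fell by 0.68 at 3 days and by 0.88 at 6 days (SE 0.12 and 0.11, edgeR adjusted p = 0.00130 and 0.000128). DAZAP1 fell by 0.64 at 3 days (SE 0.13, edgeR adjusted p = 0.00370).

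FAM98A rose at 6 days, from 54.8 and 57.0 CPM in control to 96.5 and 102, a log2 fold change of 0.82 (SE 0.11, edgeR adjusted p = 0.000255). FIGN and ENOX1 fell in MetaICM, by 1.10 (SE 0.16, edgeR adjusted p = 0.00148) and by 0.83 (SE 0.19, edgeR adjusted p = 0.0119). Of the 40 listed genes tested, 4 were called at 3 days, where 22.0% of all genes tested were called. At 6 days 1 was called higher and 6 lower, beside 30.5% of all genes. In MetaICM 4 were called, beside 16.4%. The numbers at 3 days and in MetaICM changed when single libraries were left out, and so did the number of all genes that passed.

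Nuclear speckle genes, the setting of MALAT1, numbered 38 tested. At 3 days 6 were higher and 2 lower than control, at 6 days 6 and 7, and in MetaICM 5 and 3. Among all genes tested 13.0% were higher and 15.9% lower at 3 days, 20.5% and 21.7% at 6 days, and 13.0% and 14.0% in MetaICM, against 15.8% and 5.26%, 15.8% and 18.4%, and 13.2% and 7.89% of this list. SRRM2, a scaffold of speckles, was at 575 and 930 CPM in control, 452 and 556 at 3 days, 408 and 432 at 6 days, and 371 and 361 in MetaICM. It fell by 0.85 on the log2 scale at 6 days (SE 0.19, edgeR adjusted p = 0.00511) and by 1.04 in MetaICM (SE 0.19, edgeR adjusted p = 0.00397). SON, the other scaffold, fell by 0.60 in MetaICM (SE 0.14, edgeR adjusted p = 0.0129).

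Control replicate 2 was the higher of its pair for SRRM2 and SON, as it was for MALAT1. RNPS1, a splicing activator, fell by 0.60 at 6 days (SE 0.13, edgeR adjusted p = 0.00443). ALYREF, an mRNA export adaptor that shares 31 bases with ANAPC11, fell by 0.62 at 3 days and by 0.77 at 6 days (edgeR adjusted p = 0.0220 and 0.00287). SRSF9 rose by 0.78 in MetaICM (SE 0.16, edgeR adjusted p = 0.00728), and it shares 491 bases with GATC. Of the 38, genes called numbered 1 at 3 days, where 22.0% of all genes tested were called. At 6 days there were 3, where 30.5% of all genes were called. In MetaICM, where 16.4% were, the number was 3. Each number changed when single libraries were left out, and so did the number of all genes that passed.

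Genes that cut or tail the 3′ ends of RNA, including the Integrator subunits and the RNase P proteins, numbered 37 tested at 3 and 6 days and 38 in MetaICM. At 3 days 3 were higher and 2 lower, at 6 days 7 and 3, and in MetaICM 1 and 2. These were 8.11% and 5.41%, 18.9% and 8.11%, and 2.63% and 5.26% of the list, each below the 13.0% and 15.9%, 20.5% and 21.7%, and 13.0% and 14.0% of all genes tested. CSTF3, of the complex that recognises the sequence after a poly(A) signal, was at 44.3 and 47.7 CPM in control, 70.5 and 75.6 at 3 days, 78.6 and 85.4 at 6 days, and 53.7 and 55.9 in MetaICM. It rose by 0.66 on the log2 scale at 3 days (SE 0.13, edgeR adjusted p = 0.00274) and by 0.83 at 6 days (SE 0.12, edgeR adjusted p = 0.000347).

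PABPN1, the nuclear poly(A)-binding protein, rose by 0.62 at 3 days (SE 0.16, edgeR adjusted p = 0.0117), although 1469 of its bases are shared with the readthrough gene BCL2L2-PABPN1. The Integrator genes INTS10 and INTS2 rose at 6 days by 0.75 and 0.67 (SE 0.13 and 0.11, edgeR adjusted p = 0.00135 and 0.00101). INTS7, which shares 108 bases with DTL, fell at 3 days by 0.61 and in MetaICM by 0.67 (edgeR adjusted p = 0.00742 and 0.00359). RPP14, a subunit of RNase P, rose at 6 days by 0.80 (SE 0.22, edgeR adjusted p = 0.0126), but shares 3402 bases with HTD2. Genes called numbered 3 at 3 days, beside 22.0% of all genes tested. At 6 days there were 4, beside 30.5%. In MetaICM the number was 1, beside 16.4%. Each number changed when single libraries were left out, and so did the number of all genes that passed.

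**Figure D4:**
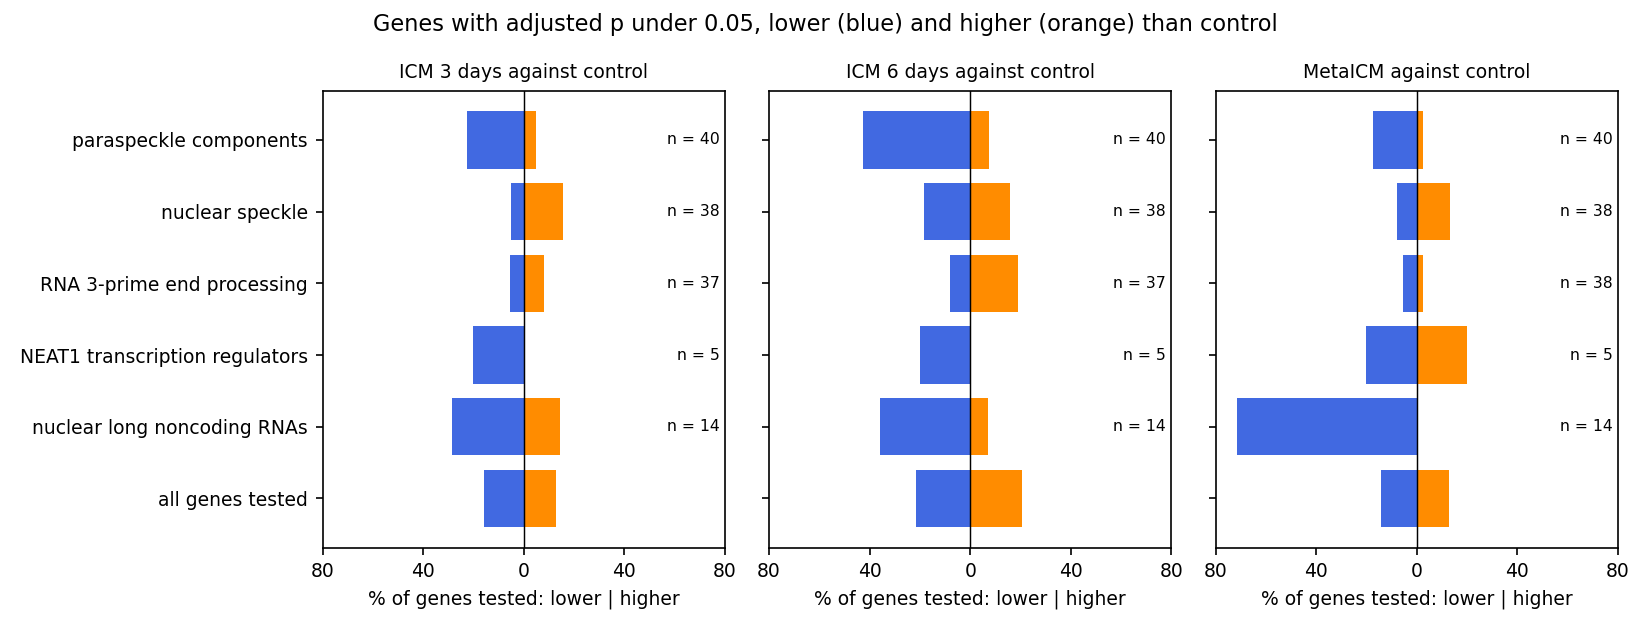
Percent of tested genes with an adjusted p under 0.05 that were lower (blue, to the left) or higher (orange, to the right) than control, for each gene list and for all genes tested, with the number tested at the right. Paraspeckle components had 17 of 40 lower at 6 days and nuclear long noncoding RNAs 10 of 14 lower in MetaICM, where all genes tested had 21.7% and 14.0%.

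Of 5 genes for factors known to act on NEAT1 transcription, EPAS1, a hypoxia-inducible factor, was the only one called against control, at each ICM time, where 22.0% and 30.5% of all genes tested were called. It was at 267 and 234 CPM in control, 143 and 132 at 3 days, 176 and 143 at 6 days, and 307 and 315 in MetaICM. EPAS1 fell by 0.87 on the log2 scale at 3 days (SE 0.13, edgeR adjusted p = 0.000296) and by 0.66 at 6 days (SE 0.13, edgeR adjusted p = 0.00234). The call at 6 days was lost without control replicate 1 or without ICM 6 days replicate 2. Of the remaining 4, 0 passed against control at either ICM time, while in MetaICM HSF1 was 0.38 higher and ATF2 0.47 lower (edgeR adjusted p = 0.0463 and 0.0477).

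Other long noncoding RNAs of the nucleus were taken from a list of 18, of which 14 were tested. At 3 days 2 were higher and 4 lower than control, at 6 days 1 and 5, and in MetaICM 0 and 10. Among all genes tested 13.0% were higher and 15.9% lower at 3 days, 20.5% and 21.7% at 6 days, and 13.0% and 14.0% in MetaICM. The median log2 fold change of the 14 was -0.17, -0.34 and -0.54, where that of all genes tested was 0.0094, -0.0013 and -0.0011. In MetaICM 6 were called, all lower, beside 16.4% of all genes tested. That number changed when single libraries were left out, and so did the number of all genes that passed.

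MIAT, another RNA kept in the nucleus, was at 26.5 and 31.1 CPM in control, 52.7 and 49.1 at 3 days, 24.6 and 24.3 at 6 days, and 15.1 and 15.7 in MetaICM. Like NEAT1, it did not overlap between the 4 conditions and had the same order. MIAT rose by 0.82 on the log2 scale at 3 days (SE 0.15, edgeR adjusted p = 0.00134) and fell by 0.90 in MetaICM (SE 0.14, edgeR adjusted p = 0.00194). The difference at 6 days was -0.24 (edgeR adjusted p = 0.199). It shares 145 bases with MIATNB.

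DLEU2 fell by 1.61 on the log2 scale at 3 days and fell by 1.65 at 6 days (SE 0.18 and 0.16, edgeR adjusted p = 2.82e-05 and 1.95e-05), and shares bases with TRIM13 and MIR15A. CDKN2B-AS1, antisense at the CDKN2A locus, had log2 fold changes of -1.03 at 3 days, -1.09 at 6 days and -1.25 in MetaICM, all lower (edgeR adjusted p = 0.0152, 0.00456 and 0.00638), at no more than 7.12 CPM. MEG8 fell by 0.77 at 3 days (SE 0.13, edgeR adjusted p = 0.000721). KCNQ1OT1, an imprinted antisense RNA, fell by 0.91 at 6 days (SE 0.11, edgeR adjusted p = 0.000131), while LINC-PINT rose by 0.60 (SE 0.11, edgeR adjusted p = 0.00127). In MetaICM MIR99AHG fell by 2.20 and FTX fell by 1.08 (SE 0.27 and 0.19, edgeR adjusted p = 0.000637 and 0.00342).

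Likeness to NEAT1 was measured as Pearson's r of log2 CPM over the 8 libraries, for 9280 genes with a mean of at least 10 CPM. The libraries share their depth and scaling and fall into 4 pairs, so r is a description. The 5 highest were MIAT (0.984), KANSL3 (0.982), ITGB3 (0.968), ACSF3 (0.964) and CTNS (0.960). They differed in size. ITGB3, a beta integrin, had means of 160 ± 18.8, 314 ± 18.4, 119 ± 2.85 and 95.3 ± 5.55 CPM in control, at 3 days, at 6 days and in MetaICM (SD, n = 2). ACSF3 had means of 24.7, 26.2, 24.4 and 23.3 CPM, a course of the same form over a narrow range.

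Of the other 6 genes, r with NEAT1 was 0.644 for PSPC1, 0.530 for MALAT1, 0.293 for RBM14, -0.188 for SFPQ, -0.420 for NONO and -0.576 for HNRNPK. MALAT1 ranked 1485th of the 9280.

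**Figure D5:**
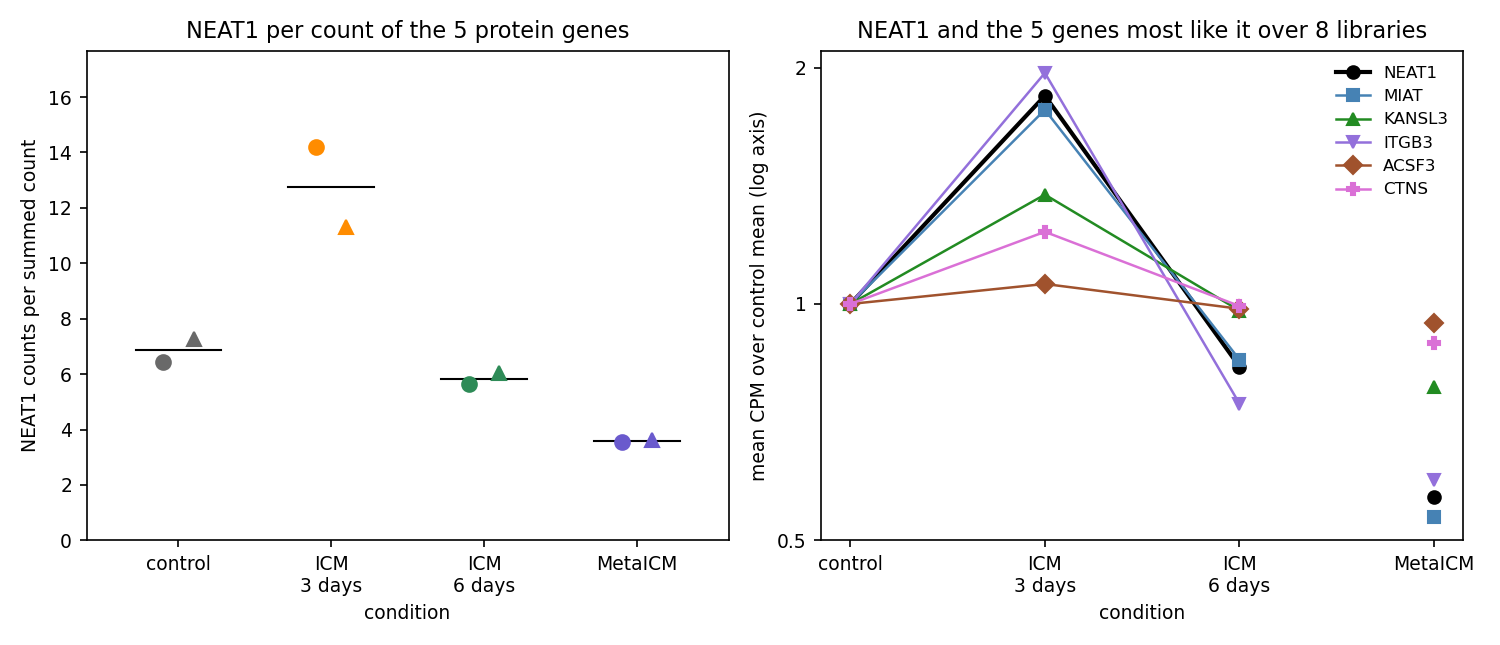
Left, NEAT1 counts per summed count of the 5 protein genes, with a point for each library and a line at the mean. Right, mean CPM of NEAT1 and of the 5 genes most like it, divided by the control mean, on a log axis. The ratio is 14.2 and 11.3 at 3 days against 3.54 and 3.62 in MetaICM, and MIAT and ITGB3 follow NEAT1 closely while ACSF3 stays near 1.

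Within 100 kb of NEAT1 and MALAT1, 15 further genes are annotated, of which 10 to 12 were tested. LOC101927789, an uncharacterised gene on the plus strand between the pair at chr11:65222757-65234466, was at 2.32 and 1.57 CPM in control, 4.28 and 5.73 at 3 days, 3.44 and 4.36 at 6 days, and 2.38 and 2.17 in MetaICM. Both ICM times lay above control and MetaICM in every library, on 19 to 93 counts. It rose by 1.32 on the log2 scale at 3 days (SE 0.31, edgeR adjusted p = 0.00711) and by 0.97 at 6 days (SE 0.29, edgeR adjusted p = 0.0225). From 3 days to MetaICM it fell by 1.12 (SE 0.24, edgeR adjusted p = 0.00184).

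LTBP3 and EHBP1L1 fell at 6 days by 0.66 each (SE 0.13 and 0.15, edgeR adjusted p = 0.00244 and 0.00474). In MetaICM 1 of 11 neighbours tested was higher than control, ZNRD2, by 0.58 (SE 0.19, edgeR adjusted p = 0.0470), and 0 were lower, beside 13.0% and 14.0% of all genes tested. FRMD8, upstream of NEAT1, passed against control in none of the 3 conditions.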

How the data were processed

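The authors deposited 1 table of raw counts per library for 8 factory RNA-seq libraries. Per the file headers and the submitters' processing notes, reads were aligned to GRCh37 with STAR 2.6.0c and fragments were counted per gene with featureCounts 1.6.3 over exons of the hg19 refGene annotation, primary alignments and proper pairs only, without strand, with fragments on several genes left out. The study's own nascent values came from introns; the counts used here are exonic, so they also hold spliced RNA. Totals ran from 12095123 to 23166405.

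Each pair of conditions was fitted on its 4 libraries with edgeR 4.0.16 (quasi-likelihood test, TMM scaling, filterByExpr at a minimum count of 10, Benjamini-Hochberg over all genes tested). A gene passed at an adjusted p under 0.05 and was called if the absolute log2 fold change was also over 0.6. The scripts were tested on simulated data. DESeq2 1.42.0, other scalings, filters, 1 fit of all 8 libraries, a replicate block, thinning, leaving out NEAT1 and MALAT1, and leaving out each library were the alternatives. CPM used TMM-scaled totals of all 8 libraries, and RPKM divided these by unshared exon length. Sequences were read from the GRCh37 genome, with GENCODE v44lift37 for transcript starts.

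The members and the 5 gene lists were chosen with earlier results of these data known. Beside the 7 members, genes were named by rule: from each list, up to 4 called genes per comparison with control that had the largest fold changes and no overlap between libraries; the tested genes within 100 kb of NEAT1 or MALAT1; and the 5 genes with the highest correlation with NEAT1. The HSF1 and ATF2 values were added after they were seen. Some genes that the rule names are not reported here.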

Additional observations from a re-analysis of the deposited data

How the results depend on the processing

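NEAT1 stood 0.88 above control on the log2 scale at 3 days, and 0.66 to 1.08 when 1 library was left out. As a ratio to MALAT1 the value was 0.46. The number of the 6 tested members called ran, over the fits without 1 library, from 0 to 1 at 3 days against control, 0 to 1 at 6 days, 0 to 1 in MetaICM, 0 to 1 in MetaICM against 3 days and 1 to 2 in MetaICM against 6 days. With NEAT1 and MALAT1 left out, the last 2 counts were 0, since MALAT1 was the gene called. Over the same fits the paraspeckle components called ran from 3 to 7 at 3 days and 1 to 5 in MetaICM. Nuclear speckle genes called ran from 1 to 6 at 3 days, 2 to 8 at 6 days and 1 to 3 in MetaICM. At 3 days their number was 0 on library totals, 2 after thinning and 0 at an adjusted p under 0.01. Genes of 3′ end processing called ran from 1 to 5, 5 to 7 and 0 to 4 at 3 days, at 6 days and in MetaICM. NEAT1 regulators called ran from 0 to 1 at 6 days and 0 to 1 in MetaICM, and nuclear long noncoding RNAs from 3 to 6 in MetaICM. The number of all genes that passed also changed between the fits without 1 library. A change in the count of a list is therefore not by itself a result about that list. The cause was not tested in any of these.

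Values near 0 changed sign at 3 days against control. PSPC1 was at -0.0022 with DESeq2 and -0.0022 with its size factors, and HNRNPK was at 0.067 on library totals and 0.00054 without a filter. With 1 library left out, at 3 days MALAT1 ran from -0.0052 to 0.81, NONO from -0.14 to 0.20, PSPC1 from -0.067 to 0.082, RBM14 from -0.21 to 0.046 and HNRNPK from -0.072 to 0.060. At 6 days NONO ran from -0.060 to 0.24. From 3 to 6 days MALAT1 ran from -0.16 to 0.22, and it was at -0.010 on library totals. In MetaICM against control MALAT1 ran from -0.78 to 0.058. Of the values that answer a comparison, 289 under alternatives stayed close and 30 moved.

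Replicate numbers do not mark a shared batch in the labels, and deviations of same-numbered libraries correlated from -0.11 to 0.20 over the 6 comparisons. With the number as a replicate block, the members called were 0, 0, 0, 0, 1 and 1, as without it, and MALAT1 also passed against control, with edgeR adjusted p = 0.000922 at 3 days, 0.0171 at 6 days and 0.0377 in MetaICM. Without a filter MALAT1 passed at 3 days (edgeR adjusted p = 0.0393) and in MetaICM (0.0110). A block with crossed numbers for MetaICM against 3 days, chosen after seeing the data, also called 1 member. Counting error is wide for LOC101927789 and TALAM1, which had 19 to 93 and 47 to 116 counts per library.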
